A study of Zea mays with 18 samples.

Results

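The root expression table of this maize study held 10 genes whose protein description contains the words high-affinity nitrate transporter, of 47334 genes in all. They were selected by that wording alone. Of these genes, 8 were described as transporters of the NRT2 type and 2 as activating proteins of such transporters, called NAR2. The descriptions are the names of rice proteins that the authors matched to the maize genes, so NRT2.1, NRT2.3, NRT2.4, NAR2.1 and NAR2.2 are used below as descriptions of maize genes and not as their established names.

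NRT2 proteins belong to the major facilitator superfamily of membrane carriers and take up nitrate (NO3-) into root cells when it is scarce outside. In rice, Arabidopsis and other plants, most NRT2 proteins transport NO3- well only together with NAR2, a small membrane-anchored partner. In roots, NRT2.1 and NAR2.1 transcripts are known to rise when NO3- is supplied to N-starved plants, and in Arabidopsis NIN-like proteins (NLPs) are among the transcription factors that act on NO3--responsive genes.

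RNA was sequenced from seedling roots of wild-type maize of the ND101 background (WT), of zmnrt1.1b and of zmnlp3.1, the mutants carrying CRISPR/Cas9 alleles of the NO3- transporter ZmNRT1.1B and of the NLP-type transcription factor ZmNLP3.1. All seedlings were raised for 10 days with full nutrients and starved of N for 4 days before 2 h in 5 mM KCl or in 5 mM KNO3. Each of the 6 groups had 3 libraries, 18 in all, and KCl gives the background without NO3-. The sample labels call both mutants knockdowns while the paper describes loss of function, and the line of each mutant that was sequenced is not given in the sources used here. The design text calls the replicates biological, and p-values below rest on the spread between these libraries.

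Between 16955904 and 19116969 reads per library (median 17992374) could be recovered from the deposited FPKM values, which are fragment numbers corrected for gene length and for sequencing depth. The libraries farthest from their groups were zmnrt1.1b KNO3 replicate 2 and zmnlp3.1 KCl replicate 4, with root-mean-square deviations of 0.45 and 0.42 on the log2 scale against 0.28 to 0.37 in the others. Root markers (28 genes, 20 of them tested) summed to 191 to 285 FPKM over the 18 libraries, and leaf markers (52 genes, 14 tested) to 116 to 204 FPKM. The edited genes were not checked by their transcripts, because no table used here links their names to the IDs of the expression table.

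In the B73 RefGen_v4 coordinates of the table, a pair of NRT2.1-described genes lay side by side on chromosome 4. gene_Zm00001d054057 in the table, written Zm00001d054057 below, spanned chr4:245638263-245639837 on the plus strand and gene_Zm00001d054060, likewise shortened, spanned chr4:245649222-245650796 on the minus strand. Both were 1575 bp long with no intron, and the 9384 bases between them held 0 listed genes. The shared length and the shared rice match leave it possible that reads were divided between the copies in an uncertain way, so their summed level is given as well. The other transporters were Zm00001d011679 (NRT2.3-described, chr8:158415720-158417282, plus strand), Zm00001d044504 (probable NRT2.4, chr3:230035173-230038705, minus strand) and a newly assembled gene with no reference ID (probable NRT2.4, chr9:121310650-121313148, minus strand). The newly assembled gene, listed at 1111 bp, had no listed protein domain, unlike the other transporters named here. The activating proteins were Zm00001d017095 (NAR2.1-described, chr5:185262626-185263851, minus strand) and Zm00001d003287 (probable NAR2.2, chr2:38811050-38812608, plus strand).

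A gene was tested when it reached at least 1 FPKM in at least 3 libraries, which 7 of the 10 genes did. Zm00001d014976, the remaining NRT2.1-described gene (chr5:70820654-70822222), had at most 14 reads in a library and 55 reads in all 18. Zm00001d025783 on chromosome 10 and Zm00001d016468 on chromosome 5, both described as probable NRT2.4, had 0 reads in every library, which allows up to 3 reads per library for counting error only. Both of these genes without reads lacked a listed protein domain, at listed lengths of 579 and 645 bp. Levels of the tested genes spanned more than 3 orders of magnitude. The NAR2.1-described gene ranked 4 of 47334 by mean FPKM in WT under KNO3 and 9 under KCl, the NRT2.1-described pair ranked 25 and 37 under KNO3, and the probable NAR2.2 gene ranked 26579.

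**Figure D1:**
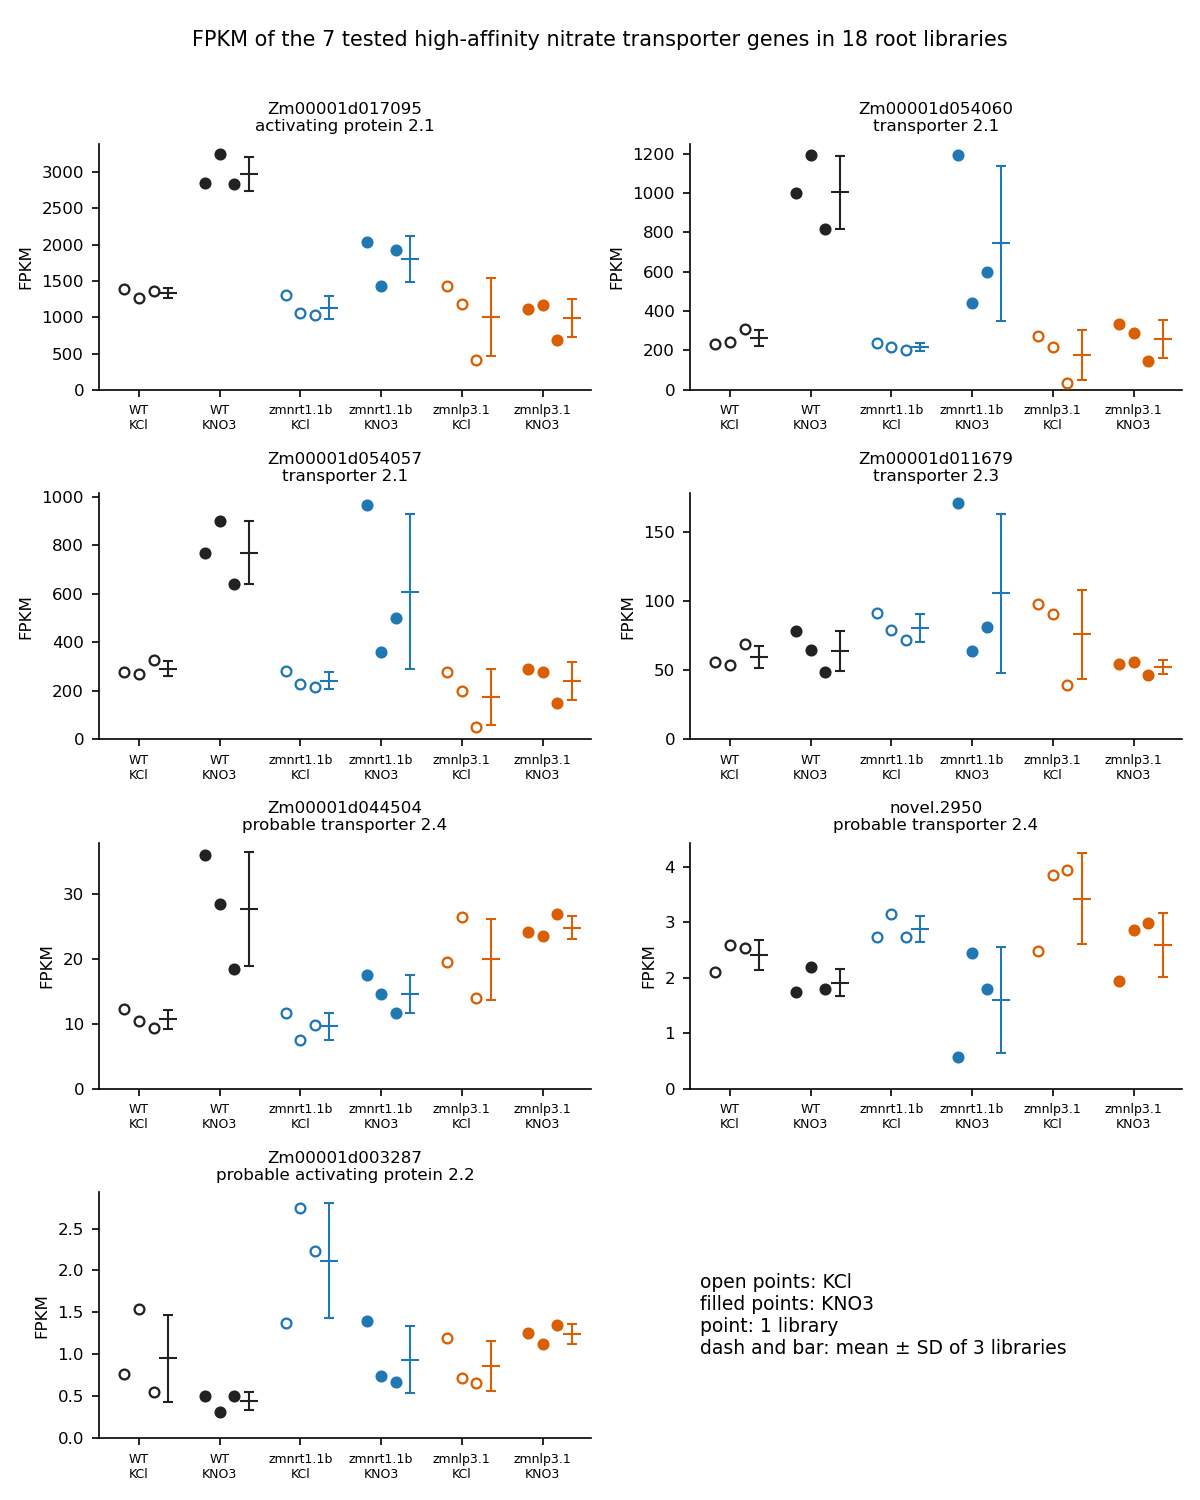
FPKM (y axis, linear from 0, a separate scale in each panel) of the 7 tested genes in the 6 groups of root libraries (x axis). Open points are KCl libraries, filled points are KNO3 libraries, and the dash and bar give the mean ± SD of 3 libraries. The WT KNO3 libraries of Zm00001d017095 lie between 2841 and 3248 FPKM, above all other libraries, while the zmnlp3.1 libraries lie between 407 and 1437 FPKM in both treatments.

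The first question was how the transporters responded to NO3- in WT. Of the 7 tested genes, 3 rose after 2 h of NO3- (adjusted p under 0.05 and an absolute log2 difference over 1), and 0 fell. Among all 26011 tested genes 2.75% rose by this rule and 2.88% fell. Those that rose were the NRT2.1-described Zm00001d054060, the probable NRT2.4 Zm00001d044504 and the NAR2.1-described Zm00001d017095. The median log2 response was 1.15 over the 7 genes and -0.00342 over all tested genes. The low-oxygen list (11 genes, 8 tested, hemoglobins among them) summed to 1375 to 1809 FPKM in the WT KCl libraries and to 5195 to 5434 FPKM in the WT KNO3 libraries, with 2 genes that rose and 2 that fell, and its part in the result was not tested.

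Zm00001d054060 stood at 234, 243 and 308.5 FPKM in the WT KCl libraries and at 1001, 1190 and 818 FPKM in the WT KNO3 libraries. The treatments did not overlap, and the gap between them was wider than the range of either. The mean rose from 262 ± 40.6 to 1003 ± 186 FPKM (SD, n = 3), a log2 difference of 1.93 (95% interval 0.76 to 3.11, adjusted p = 0.0297 from limma).

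Its neighbour Zm00001d054057 stood at 277, 272 and 328 FPKM under KCl and at 770, 900 and 639 FPKM under KNO3. These values did not overlap either, but the log2 difference of 1.39 (95% interval 0.37 to 2.40) missed the threshold in limma with an adjusted p of 0.0700. Summed as a single locus, the pair went from 554 ± 71.7 to 1773 ± 317 FPKM, a ratio of 3.20.

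Zm00001d017095 encodes the presumed partner protein of these carriers. It stood at 1393, 1263 and 1358 FPKM under KCl and at 2850, 3248 and 2841 FPKM under KNO3, again without overlap. The log2 difference was 1.15 (95% interval 0.43 to 1.88, adjusted p = 0.0353 from limma). The probable NAR2.2 gene, the other activating protein, had only 5 to 25 reads per WT library, and its log2 difference of -0.87 did not pass the test (adjusted p = 0.166 from limma).

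The probable NRT2.4 gene Zm00001d044504 was far weaker and varied more under NO3-. It stood at 12.3, 10.4 and 9.30 FPKM in the WT KCl libraries and at 35.9, 28.5 and 18.5 FPKM in the WT KNO3 libraries. Its log2 difference of 1.32 had the smallest standard error of the 7 genes, 0.247, and an adjusted p of 0.00180 from limma. In rice, NRT2.3 is known to act in moving NO3- from root to shoot, and the NRT2.3-described Zm00001d011679 stood at 53.9 to 68.7 FPKM under KCl and 48.9 to 78.2 FPKM under KNO3. These ranges overlapped, and the log2 difference of 0.09 had a 95% interval of -0.62 to 0.80. The newly assembled gene had 34 to 52 reads per WT library and a log2 difference of -0.32 (95% interval -1.08 to 0.43).

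In WT the KNO3 libraries lay wholly above the KCl libraries for 4 of the 7 genes, a pattern that 17.4% of all tested genes showed, and wholly below them for 1, the probable NAR2.2, as for 17.3%. The number that passed the test was less settled. It was 1 whenever any single WT library was left out, and then the gene that still passed was the probable NRT2.4, Zm00001d044504. It was 4 when zmnlp3.1 KCl replicate 1 or 4 was left out, since Zm00001d054057 then passed with an adjusted p of 0.0404 or 0.00540 from limma. All 6 groups share a single estimate of the spread, so a library of a mutant bears on the p-values of WT.

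**Figure D2:**
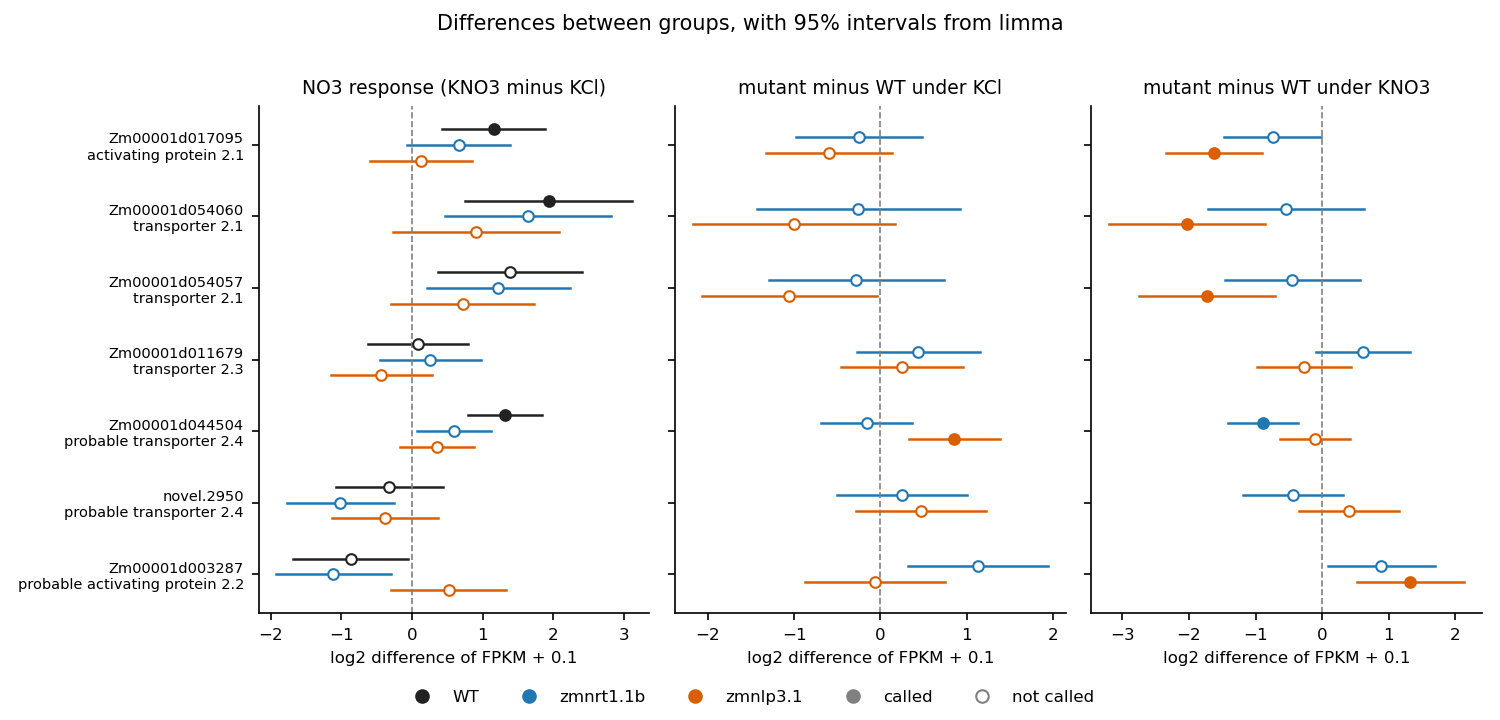
Log2 differences of FPKM + 0.1 (x axis) for the 7 tested genes (y axis), with the NO3- response of each genotype in the left panel and each mutant minus WT under KCl and under KNO3 in the others. Points are estimates and bars 95% intervals from limma, and filled points passed the rule of their comparison. Under KNO3 the zmnlp3.1 estimates of the NAR2.1-described gene and the NRT2.1-described pair lie between -1.62 and -2.03.

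The next comparison asked how the levels under NO3- depended on ZmNLP3.1. Under KNO3, 3 of the 7 tested genes were lower in zmnlp3.1 than in WT and 1 was higher (adjusted p under 0.05). Over all tested genes 16.7% were lower and 14.7% higher. The lower genes were the most abundant of the set, the NAR2.1-described gene and both NRT2.1-described genes, with WT means 3.01 to 3.90 times those of the mutant. The higher gene was the probable NAR2.2.

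The zmnlp3.1 KNO3 libraries held 1120, 1164 and 688 FPKM of the NAR2.1-described Zm00001d017095, where WT held 2841 to 3248 FPKM. The highest mutant library was therefore below the lowest WT library by more than the whole range of either group. The log2 difference was -1.62 (95% interval -2.35 to -0.90, adjusted p = 0.00237 from limma). In zmnlp3.1 KNO3 libraries Zm00001d054060 stood at 336, 287 and 149 FPKM, near the 234 to 308.5 FPKM of WT without NO3-. Its log2 difference from WT under KNO3 was -2.03 (95% interval -3.20 to -0.85, adjusted p = 0.0117 from limma). Zm00001d054057 stood at 289, 280 and 150 FPKM, a log2 difference of -1.73 (limma, adjusted p = 0.0124). None of these mutant libraries overlapped WT, and for the pair summed as 1 locus the WT mean was 3.57 times the mutant mean. For 3 of 7 genes the mutant lay wholly below WT, as it did for 24.8% of all tested genes, and for 1 gene, the probable NAR2.2, wholly above it, as for 22.2%.

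The remaining carriers behaved otherwise under KNO3. The probable NRT2.4 Zm00001d044504 stood at 24.1, 23.5 and 26.8 FPKM in zmnlp3.1, inside the WT range of 18.5 to 35.9 FPKM, with a log2 difference of -0.11 (95% interval -0.63 to 0.42). The NRT2.3-described Zm00001d011679 stood at 54.5, 55.9 and 46.5 FPKM, a log2 difference of -0.27 (95% interval -0.98 to 0.44). The probable NAR2.2 Zm00001d003287 was higher in the mutant, at 1.26, 1.12 and 1.35 FPKM against 0.506, 0.314 and 0.509 FPKM in WT. That difference, 1.32 on the log2 scale with an adjusted p of 0.0155 from limma, rested on 19 to 22 reads per mutant library and 5 to 8 reads per WT library.

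The lowest zmnlp3.1 KNO3 library, replicate 4, bore on these calls. Without it the log2 differences of the NAR2.1-described gene and of Zm00001d054060 and Zm00001d054057 were -1.38, -1.67 and -1.42, and of the 4 genes only the NAR2.1-described gene still passed (adjusted p = 0.0175 from limma, the pair at 0.0645 and 0.0678). Without WT KNO3 replicate 3 the probable NAR2.2 no longer passed (adjusted p = 0.0684 from limma). Marker lists were counted in the same comparison, where 16.7% of all tested genes were lower and 14.7% higher. Of the 8 tested low-oxygen genes 6 were lower and 1 higher in zmnlp3.1 than in WT under KNO3, with sums of 1780 to 2449 FPKM against 5195 to 5434 FPKM. Of the heat-shock list (39 genes, 20 tested) 8 were lower and 0 higher, with sums of 243 to 275 FPKM against 415 to 447 FPKM. Of 20 tested root markers 2 were higher and 4 lower, and of 14 tested leaf markers 1 was higher and 4 lower. Their part in the result was not tested, and in whole roots fewer cells of a type and less RNA per cell cannot be told apart.

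Without NO3-, the gene that passed in zmnlp3.1 against WT was not among those that passed under KNO3. Estimates of greater size that did not pass are given in the next paragraph. Under KCl the probable NRT2.4 Zm00001d044504 stood at 19.5, 26.4 and 13.9 FPKM in zmnlp3.1, above the 9.30 to 12.3 FPKM of WT in every library. Of the 7 genes it was the only one whose libraries lay wholly above WT, which 14.8% of all tested genes did. It was the only gene of the 7 that passed the test in this comparison (log2 difference 0.86, 95% interval 0.33 to 1.38, adjusted p = 0.0392 from limma), against 2.58% of all tested genes that were higher and 6.81% that were lower. It no longer passed when any WT KCl library, zmnlp3.1 KCl replicate 1 or zmnlp3.1 KCl replicate 3 was left out (adjusted p 0.0611 to 0.154).

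The NRT2.1-described pair and the NAR2.1-described gene had 1 library far below the others in zmnlp3.1 under KCl. Zm00001d054060 stood at 275 and 219 FPKM in zmnlp3.1 replicates 1 and 3 but at 36.1 FPKM in replicate 4. Zm00001d054057 stood at 279, 199 and 49.4 FPKM and Zm00001d017095 at 1437, 1180 and 407 FPKM in the same libraries. Replicate 4 was also the lowest of its group for the NRT2.3-described gene, at 39.1 FPKM against 97.9 and 90.8 FPKM, whereas the newly assembled gene had its highest value of the group there, 3.94 FPKM. With all 3 libraries the log2 differences from WT under KCl were -1.0, -1.06 and -0.60 for Zm00001d054060, Zm00001d054057 and Zm00001d017095, and none passed. Without replicate 4 they were -0.08, -0.31 and -0.04.

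The role of ZmNRT1.1B was examined by the same contrasts against the same WT libraries. Under KNO3, 1 of the 7 genes was lower in zmnrt1.1b (9.66% of all tested genes) and 0 were higher (7.9%). That gene was the probable NRT2.4 Zm00001d044504, at 17.4, 14.5 and 11.7 FPKM against 18.5 to 35.9 FPKM in WT. The groups did not overlap, although the highest mutant library came close to the lowest WT library, and the log2 difference was -0.89 (95% interval -1.41 to -0.36, adjusted p = 0.0217 from limma). It missed the threshold in 4 of 18 fits that left out a library, those without WT KNO3 replicate 1 or 3 or zmnrt1.1b KNO3 replicate 4 or 5, with adjusted p from 0.0501 to 0.115. It also missed it with only the groups compared (adjusted p = 0.0605) and with the replicate number as a block (log2 difference -0.65, adjusted p = 0.130). In the same comparison the low-oxygen list summed to 2883 to 3887 FPKM in zmnrt1.1b against 5195 to 5434 FPKM in WT, with 2 of 8 tested genes higher and 2 lower. Root markers summed to 191 to 223 FPKM against 248 to 285 FPKM (2 of 20 higher, 4 lower), and 1 of 20 tested heat-shock genes was higher and 4 lower. Of 14 tested leaf markers 1 was higher and 2 lower. The part of these lists in the result was not tested.

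The NAR2.1-described gene also lay wholly below WT in zmnrt1.1b under KNO3, at 2036, 1437 and 1926 FPKM, as 18.4% of all tested genes did, and the probable NAR2.2 lay wholly above WT, as 14.7% did. The log2 difference of the NAR2.1-described gene, -0.74, did not pass (adjusted p = 0.149 from limma), but it did when zmnlp3.1 KCl replicate 4 was left out (adjusted p = 0.0174). For the NRT2.1-described pair a single zmnrt1.1b library reached WT levels. Zm00001d054060 stood at 1191, 442 and 598 FPKM and Zm00001d054057 at 969, 359 and 501 FPKM in replicates 2, 4 and 5, where the high library, replicate 2, was the one farthest from its group. The log2 differences from WT were -0.54 and -0.45 with all libraries and -0.95 and -0.85 without replicate 2, with adjusted p of 0.295 and 0.266 in limma. When zmnlp3.1 KCl replicate 4 was left out as well, a choice made after seeing the data, the adjusted p became 0.0282 and 0.0357.

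Under KCl 0 of the 7 genes differed between zmnrt1.1b and WT by limma, 1 was higher at an unadjusted p under 0.05 (8.05% of all tested genes higher, 7.87% lower), and 0 passed by voom on the recovered reads. Over all tested genes 2.06% were higher and 1.85% lower by limma, and 2.51% and 2.11% by voom. The gene at the unadjusted threshold was the probable NAR2.2 Zm00001d003287, at 1.38, 2.74 and 2.24 FPKM against 0.770, 1.54 and 0.552 FPKM in WT (log2 difference 1.13, adjusted p = 0.122 from limma). These ranges overlapped. Wholly above WT, as 13.3% of all tested genes were, lay the NRT2.3-described Zm00001d011679, at 91.4, 78.9 and 71.5 FPKM against 53.9 to 68.7 FPKM, and the newly assembled gene, at 53 to 61 reads per library against 44 to 52. Their log2 differences of 0.44 and 0.25 did not pass (adjusted p = 0.611 and 0.835 from limma).

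Within the mutants, 0 of the 7 genes passed the rule for the NO3- response in zmnrt1.1b (2.03% of all tested genes rose and 2.62% fell) and 0 in zmnlp3.1 (1.74% rose and 2.29% fell). At an unadjusted p under 0.05, 3 were higher and 2 lower in zmnrt1.1b (14% and 16.2% of all tested genes), and 0 moved in zmnlp3.1 (14.7% higher and 14.4% lower over all). By voom on the recovered reads the counts were 1 for zmnrt1.1b and 0 for zmnlp3.1. Both directions together, voom called 4.74% and 3.98% of all tested genes. In zmnrt1.1b 1 gene passed in limma in each of several fits that left out a library, and most of these calls were falls. The probable NAR2.2 fell without WT KCl replicate 2 (-1.11) or zmnrt1.1b KNO3 replicate 2 (-1.41). The newly assembled gene fell without zmnrt1.1b KNO3 replicate 4 (-1.41). Zm00001d054060 rose without zmnlp3.1 KCl replicate 1 (1.65), and 2 genes, the pair, rose without zmnlp3.1 KCl replicate 4. In zmnrt1.1b the log2 differences of the pair were 1.65 for Zm00001d054060 (adjusted p = 0.0561 from limma) and 1.22 for Zm00001d054057 (adjusted p = 0.0964), and the treatments did not overlap for either gene. Without zmnrt1.1b KNO3 replicate 2, the high library, these estimates were 1.24 and 0.82, and their differences from the WT response went from -0.29 and -0.17 to -0.69 and -0.56. The KNO3 libraries lay wholly above the KCl libraries for 4 of the 7 genes (15.7% of all tested genes) and wholly below them for 1 (17.8%). The NAR2.1-described gene had 0.66 and the probable NRT2.4 0.60. Both genes at low levels, the newly assembled gene and the probable NAR2.2, had negative estimates in zmnrt1.1b, -1.01 and -1.11, with adjusted p of 0.0662 and 0.0604 in limma. The newly assembled gene had 10 reads in zmnrt1.1b KNO3 replicate 2 against 49 and 36 in replicates 4 and 5, and its estimate was -0.44 without replicate 2 and -1.41 without replicate 4.

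In zmnlp3.1 the treatments overlapped for all 7 tested genes, while 16.3% of all tested genes lay wholly higher under KNO3 and 14% wholly lower. The NAR2.1-described gene had a mean of 1008 ± 536 FPKM under KCl and 991 ± 263 FPKM under KNO3 (SD, n = 3), a log2 difference of 0.13 (95% interval -0.60 to 0.85). Without KCl replicate 4 the estimate changed sign, to -0.43 (adjusted p = 0.214 from limma). The pair had 0.91 and 0.72 with all libraries, and -0.01 and -0.03 without KCl replicate 4, the low library. The NRT2.3-described gene had -0.43 with all libraries and -0.85 without that library (adjusted p = 0.0651 from limma).

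Whether the responses differed between genotypes was tested directly. The response of zmnrt1.1b differed from that of WT for 0 of the 7 genes by limma, with 0 at an unadjusted p under 0.05 and 0 by voom. Over all tested genes, 0.542% had a larger response and 0.969% a smaller one by the adjusted p, and 8.38% and 9.22% by the unadjusted p. By voom these shares were 0.623% and 1.22%. The response of zmnlp3.1 differed from that of WT for 0 of the 7 genes by limma, with 1 larger and 1 smaller at an unadjusted p under 0.05 and 0 by voom. Over all tested genes the shares were 2.21% larger and 2.68% smaller by the adjusted p, and 10.9% and 10.5% by the unadjusted p. By voom they were 2.55% and 2.82%. The mutants differed from each other in 0 genes by limma, with 1 larger at an unadjusted p under 0.05 and 0 by voom, against 1.38% larger and 0.411% smaller over all tested genes (8.66% and 5.47% by the unadjusted p). Between the mutants voom gave 1.43% larger and 0.411% smaller responses over all tested genes. The comparisons of both mutants with WT share the WT libraries.

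For zmnlp3.1 the estimates were large and imprecise. The response was 1.03 log2 units below that of WT for the NAR2.1-described gene (95% interval -2.05 to 0.00, adjusted p = 0.235 from limma), 1.03 below for Zm00001d054060 (-2.69 to 0.64), 0.67 below for Zm00001d054057 (-2.11 to 0.76) and 0.96 below for the probable NRT2.4 (-1.70 to -0.22, adjusted p = 0.126). It was 1.39 above that of WT for the probable NAR2.2 (0.24 to 2.53, adjusted p = 0.152).

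Leaving out zmnlp3.1 KCl replicate 4 changed this result. The difference then became -1.59 for the NAR2.1-described gene (adjusted p = 0.00828 from limma), -1.95 for Zm00001d054060 (adjusted p = 0.0276) and -1.20 for the probable NRT2.4 (adjusted p = 0.0478), and 3 of the 7 genes passed. Over all tested genes 2.34% then had a larger response and 3.54% a smaller one, so that calls increased in the whole table as well. Zm00001d054057 was at -1.42 with an adjusted p of 0.0796. The count was 1, the probable NRT2.4 with an adjusted p of 0.0465 from limma, when WT KNO3 replicate 4 was left out. In that fit 2.15% of all tested genes had a larger response and 2.22% a smaller one.

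**Figure D3:**
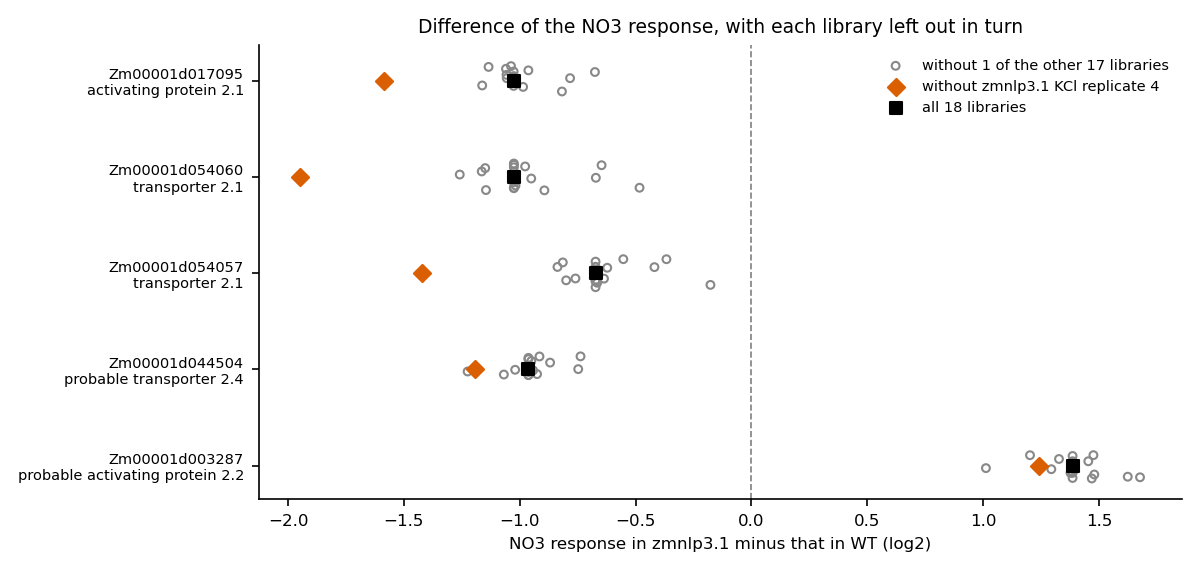
Difference between the NO3- response of zmnlp3.1 and that of WT on the log2 scale (x axis) for 5 tested genes (y axis). The black square is the estimate from all 18 libraries, the orange diamond the estimate without zmnlp3.1 KCl replicate 4, and each open circle the estimate without 1 of the other libraries, spread vertically only to keep points apart. For Zm00001d054060 the diamond stands at -1.95 and the square at -1.03.

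The split of reads within the NRT2.1-described pair moved with NO3-. In WT, 45.8%, 47.2% and 48.4% of the pair's reads fell on Zm00001d054060 under KCl, and 56.5%, 56.9% and 56.1% under KNO3. The group means were 47.2% ± 1.3 and 56.5% ± 0.404 (SD, n = 3), and no library of one treatment reached the other. In zmnrt1.1b the shares were 47.6% ± 1.49 under KCl and 54.9% ± 0.425 under KNO3, again without overlap, and replicate 2 under KNO3 had the same share as replicate 4 (55.1% and 55.2%) despite its far higher level. In zmnlp3.1 they were 48.1% ± 5.28 under KCl, with 42.2% in replicate 4, and 51.4% ± 2.12 under KNO3, so that the treatments overlapped. Every zmnlp3.1 KNO3 library, at 49.7% to 53.8%, lay below every WT KNO3 library. The least precise share, that of zmnlp3.1 KCl replicate 4, had a 95% Wilson interval of 40.4% to 44.1%, for counting error only. These shares are given as a description, and how the counting treated reads common to both copies is not given in the sources used here.

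The balance of the partner protein to the carriers was followed as the FPKM of Zm00001d017095 over the summed FPKM of the pair. In WT this ratio was 2.73, 2.46 and 2.13 under KCl and 1.61, 1.55 and 1.95 under KNO3, without overlap. In zmnrt1.1b it was 2.46 ± 0.0670 under KCl and 1.50 ± 0.480 under KNO3 (SD, n = 3), the lowest value, 0.943, being that of replicate 2. In zmnlp3.1 it was 3.39 ± 1.19 under KCl, with 4.75 in replicate 4, and 2.05 ± 0.253 under KNO3. The transcript of the activating protein thus exceeded the summed NRT2.1-described pair in 17 of 18 libraries, per length of gene. The other carriers were not in this sum.

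**Figure D4:**
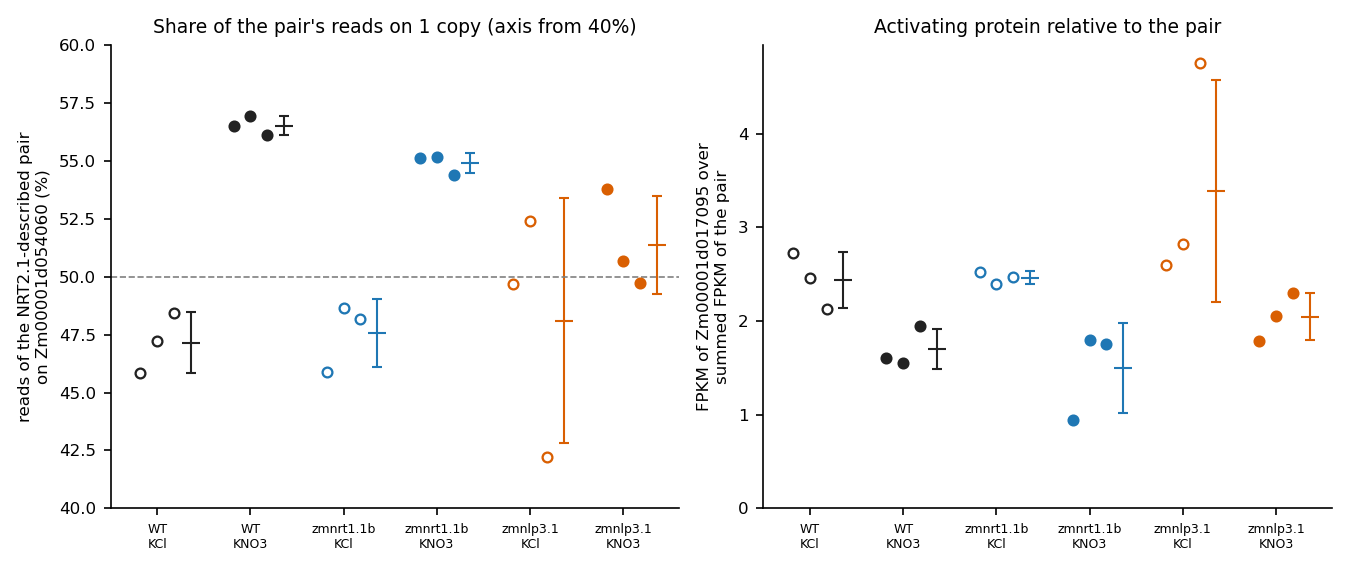
Left, percentage of the reads of the NRT2.1-described pair that fell on Zm00001d054060 (y axis from 40 to 60%, dashed line at 50%), and right, FPKM of the NAR2.1-described Zm00001d017095 over the summed FPKM of the pair (y axis from 0), by group (x axis). Open points are KCl libraries, filled points KNO3 libraries, and dash and bar the mean ± SD of 3 libraries. The WT share moves from 47.2% to 56.5% with NO3-.

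Across the 6 groups, the order of mean levels was the same at its top for the abundant genes. For the NAR2.1-described gene and both NRT2.1-described genes, WT KNO3 was highest, zmnrt1.1b KNO3 second and WT KCl the third. WT KNO3 was apart from zmnrt1.1b KNO3 only for the NAR2.1-described gene, where the lowest library stood at 2841 FPKM against a highest of 2036 FPKM. For all 3 genes zmnrt1.1b KNO3 lay wholly above WT KCl, and every neighbouring pair below that overlapped. For the probable NRT2.4 the order was WT KNO3, zmnlp3.1 KNO3, zmnlp3.1 KCl, zmnrt1.1b KNO3, WT KCl and zmnrt1.1b KCl, and every neighbouring pair in that order overlapped.

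Over the 18 libraries the log2 levels of the pair had a Pearson correlation of 0.993 with each other, and the NAR2.1-described gene had 0.951 with Zm00001d054060 and 0.957 with Zm00001d054057. The probable NRT2.4 had only 0.338 and 0.269 with the pair, and the newly assembled gene had -0.737 and -0.755. Outside the set, the genes with the pattern most like Zm00001d054060 were described as the zinc finger protein ZAT18 (Zm00001d047786, 0.980), the putative chloride channel-like protein CLC-g (Zm00001d015702, 0.971) and an L-ascorbate oxidase homolog (Zm00001d038521, 0.963). For the NAR2.1-described gene they were a carbonic anhydrase (Zm00001d044095, 0.967), Zm00001d021740, which has no description (0.962), and cytochrome P450 94B1 (Zm00001d045188, 0.959). For the probable NRT2.4 the closest gene, described as DA1-related 2 (Zm00001d047837), reached 0.866. These values describe 18 libraries that share treatments, groups and processing, and are given without a test.

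The transporters were set beside other genes of NO3- assimilation and signalling, chosen by description (89 genes, 54 tested). In WT 16 of the 54 rose and 2 fell with NO3- (2.75% and 2.88% of all tested genes), in zmnrt1.1b 12 rose and 2 fell (2.03% and 2.62%), and in zmnlp3.1 10 rose and 3 fell (1.74% and 2.29%). Under KNO3 29 were lower and 1 higher in zmnlp3.1 than in WT, against 16.7% and 14.7% of all tested genes, and 16 were lower and 2 higher in zmnrt1.1b, against 9.66% and 7.9%. The response in zmnlp3.1 was smaller than in WT for 8 of the 54 and larger for 0 (2.68% and 2.21% of all tested genes), and in zmnrt1.1b smaller for 1 and larger for 0 (0.969% and 0.542%).

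Nitrate reductase reduces NO3- to nitrite, and 3 of 5 tested nitrate reductase genes rose in WT. The largest response, that of Zm00001d018206, took its mean from 60.5 ± 12.6 to 867 ± 137 FPKM in WT (SD, n = 3) and from 30.4 ± 9.58 to 127 ± 22.3 FPKM in zmnlp3.1. The responses of this gene in zmnlp3.1 and in WT differed by -1.75 log2 units with all 18 libraries (limma, adjusted p = 0.00817). It was picked for its WT response, which is part of that difference. Of the 5 tested nitrate reductase genes 2 had a smaller response in zmnlp3.1 than in WT and 0 a larger one. Over all tested genes these shares were 2.68% and 2.21%. Nitrite reductase carries out the following step, and 3 of its 4 tested genes rose in each genotype while 0 differed in response between zmnlp3.1 and WT by limma. Zm00001d018161, the most abundant, went from 227 ± 21.6 to 1516 ± 125 FPKM in WT and from 142 ± 73.9 to 610 ± 108 FPKM in zmnlp3.1. Both tested genes described as HHO or NIGT1 repressors, which in Arabidopsis act on NRT2 genes among others, rose in all 3 genotypes. Each mutant nevertheless had a smaller response than WT for 1 of these 2 genes and a larger one for 0 by limma. Smaller responses made up 0.969% of all tested genes for zmnrt1.1b and 2.68% for zmnlp3.1. Under KNO3, 1 of the 2 was below WT in either mutant, against 9.66% of all tested genes for zmnrt1.1b and 16.7% for zmnlp3.1.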

How the data were processed

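Poly(A) RNA of maize roots was sequenced in 18 libraries, 3 for each genotype and treatment. Per the labels, reads were processed with fastp, HISAT2 (v2.0.5) and StringTie (v1.3.3b). The deposited FPKM values were computed by the authors from fragments on each gene, its length and library size. FPKM times gene length gave whole reads (within 0.01 reads for values under 1000 reads) in 100% of values, 16955904 to 19116969 reads per library, and each FPKM denominator was 0.925 to 1.11 times this total.

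Genes with at least 1 FPKM in at least 3 libraries (26011 of 47334) were analysed as log2(FPKM + 0.1) by the R (v4.3.3) package limma (v3.58.1), in a model of the 6 groups with a variance trend. Fold changes on this scale understate those of weak genes. P-values were two-sided and Benjamini-Hochberg adjusted over all tested genes. Responses were called at adjusted p under 0.05 and an absolute log2 difference over 1, other differences at adjusted p under 0.05. The fit, tested on simulated data with 200 changed genes, recovered 192 and called 3 unchanged ones. Only genes above a minimum level were changed there, with independent noise and without an outlying library. That recovery therefore does not carry over to weak genes, to smaller changes or to calls that hang on 1 library.

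Members and lists were chosen by protein description with earlier results of these data known. The most similar patterns are the 3 tested genes with the highest Pearson correlation. Alternatives were a pseudocount of 1, a minimum of 0.1 FPKM, no minimum, median-ratio rescaling, scaling to total reads, voom on recovered reads, only the groups compared, the replicate number as a block, and leaving out libraries. Python (v3.11.15), pandas (v2.3.3) and matplotlib (v3.10.9) were used. Protein and promoter sequences of these genes were not analysed here.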

Additional observations from a re-analysis of the deposited data

How the results depend on the processing

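None of the results changed direction past its threshold under any alternative run. The count of genes that rose with NO3- in WT was 3. It was 2 with a minimum of 0.1 FPKM, 1 with no minimum and 4 with only the groups compared. With a library left out it was 1 to 4. Over all tested genes 2.75% rose in the main fit, and 2.5%, 2.16% and 3.08% in these alternatives in the same order. With a library left out 575 to 759 genes of the whole table rose, against 716 with all libraries. In zmnrt1.1b the response count of 0 became 1 with only the groups compared, with voom on recovered reads or with scaling to total reads. It was 0 to 2 with a library left out. Both directions together, 4.64% of all tested genes were called in the main fit and 3.99%, 4.74% and 4.63% in these alternatives. With a library left out 371 to 563 genes of the whole table rose and 404 to 771 fell. The count of 1 in zmnrt1.1b against WT under KNO3 became 0 with only the groups compared and 0 to 2 with a library left out. With only the groups compared 11.3% of all tested genes were called, against 17.6% in the main fit. With a library left out 1414 to 2898 genes of the whole table were lower and 1100 to 2259 higher. The count of 1 in zmnlp3.1 against WT under KCl became 0 with no minimum or only the groups compared. It was 0 to 1 with a library left out. Of all tested genes 9.39% were called in the main fit, and 5.76% and 3.81% in these alternatives. With a library left out 987 to 2152 genes of the whole table were lower and 320 to 1067 higher. The 4 genes that differed in zmnlp3.1 under KNO3 became 1 to 4, and the 0 response differences of zmnlp3.1 became 0 to 3, with a library left out. An alternative chosen after seeing the data, like the scaling to total reads, left out both libraries farthest from their groups. Of the 7 tested transporter genes 4 then passed for the response in WT, 2 for that in zmnrt1.1b and 4 for zmnrt1.1b under KNO3. For zmnlp3.1 the counts were 2 under KCl, 4 under KNO3 and 5 for the response difference. Calls over all tested genes, both directions together, went in the same order from 5.64% to 6.23%, 4.64% to 5.52%, 17.6% to 19.9%, 9.39% to 7.2%, 31.5% to 38.7% and 4.89% to 9.18%. The cause was not tested. The scaling to total reads moved the median of all genes in zmnlp3.1 against WT under KNO3 to 0.13, against -0.00438 as deposited, and the NAR2.1-described gene stood at -1.49 there. Median-ratio factors were 1 for every library and changed nothing.

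Whether equal replicate numbers mark paired samples could not be settled. Deviations from the group means had correlations of -0.0703 to 0.271 between libraries of the same number in both treatments of a genotype. Between libraries of different numbers they were -0.232 to 0.158. The highest value, 0.271, was that of replicate 4 in zmnlp3.1. With the replicate number as a block, the counts were 4 for the response in WT, 3 for that in zmnrt1.1b and 0 for zmnrt1.1b against WT under KNO3. They take genes that rose and genes that fell together. Over all tested genes, both directions together, the shares were 5.72%, 5.36% and 14% in the same order. The probable NAR2.2 had 5 to 25 reads per WT library, which limits the precision of its values.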
